A study of Mus musculus with 16 samples.

Results

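The genes described here are 10 heat shock genes whose protein products fold other proteins, 8 of them in the cytosol and 2 in mitochondria. They are Hspa8, Hspa1a and Hspa1b (HSP70 family), Hsph1 (HSP110), Dnajb1 (HSP40), Hsp90aa1 and Hsp90ab1 (HSP90), Hspb1 (a small heat shock protein), and Hspd1 and Hspe1 (the mitochondrial chaperonin HSP60 and its lid HSP10). They were chosen by name from the 17003 genes of a table of FPKM values (sequenced fragments relative to transcript length and library size), and all 10 were in it. Liver RNA was sequenced from 16 male mice of 8 weeks that were kept on normal chow and are labelled as fed, with 1 library per mouse. All 16 carry floxed Fgl1 alleles. The 8 Fgl1 LWT mice have no Cre, and their 8 Fgl1 LKO littermates carry Cre under the albumin promoter, which is active in hepatocytes, so that Fgl1 is deleted in that cell type. The comparison asks how the liver transcriptome differs when hepatocytes lack FGL1, a protein that they secrete.

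Heat shock proteins are molecular chaperones. HSP70 proteins bind unfolded stretches of other proteins in a cycle driven by ATP, in which J-domain proteins such as DNAJB1 start ATP hydrolysis and exchange factors such as HSP110 release the ADP. Clients can then pass to HSP90 through linker proteins, and small heat shock proteins hold unfolded proteins until HSP70 takes them over. Many of these genes are transcribed under heat shock factor 1 (HSF1), which binds arrays of the unit GAA in alternating orientation, and in the liver their mRNA is known to vary with temperature, feeding and time of day.

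The mice form 4 runs of mouse numbers (36 to 38, 48 to 55, 60 to 64 and 69 to 72), of which the first holds 3 Fgl1 LWT mice only. These runs were set here from the mouse numbers, and mouse 55 lies as far from mouse 50 as from mouse 60. Whether the runs are batches is not stated. Summed FPKM lay between 673153 and 786188 and genes above 0 between 14116 and 14407 per library, and read depth is unknown. Fgl1 itself ranged from 157.8 to 1331 FPKM in Fgl1 LWT and from 13.2 to 90.0 FPKM in Fgl1 LKO mice, with no overlap (exact permutation test over mice, two-sided, p = 0.000155, the smallest that 8 against 8 mice can give). Hepatocyte markers summed to between 45570 and 83680 FPKM, and markers of T cells and B cells were near 0, at no more than 0.83 and 1.30 FPKM in sum.

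The 4 stretches of sequence shown next lie before transcription starts and hold the alternating GAA and TTC units that heat shock factors are known to bind. They come from the 250 bases before the annotated start of the principal transcript on GRCm39 (GENCODE annotation), the assembly that the authors' mm39 names, and are written 5′ to 3′ on the strand of the gene named first. Capitals mark each match to GAANNTTC or TTCNNGAA.
Hspa1a and Hspa1b: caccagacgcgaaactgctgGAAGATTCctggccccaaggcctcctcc
Hsph1: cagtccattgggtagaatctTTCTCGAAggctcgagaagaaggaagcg
Hspb1: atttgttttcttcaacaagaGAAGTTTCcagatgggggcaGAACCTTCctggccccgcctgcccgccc
Hspd1: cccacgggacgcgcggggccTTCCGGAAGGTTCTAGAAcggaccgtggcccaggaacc

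The Hspa1a stretch lies at chr17:35191209-35191256, and the same 48 bases precede Hspa1b at chr17:35178291-35178338, both on the minus strand and from 124 to 77 bases before the start. Over the whole window, 247 of 250 positions were identical between these neighbouring genes, which lie 9951 bases apart. The Hsph1 stretch (chr5:149559807-149559854, minus strand) ends at the start itself. The Hspb1 stretch (chr5:135916636-135916703, plus strand) holds 2 matches. The Hspd1 stretch (chr1:55127198-55127255, minus strand) lies in the 107 bases that part Hspd1 from Hspe1, which are transcribed away from each other, so that the same stretch, read on the plus strand, also precedes Hspe1. It is the only 4-unit run among these genes, made of overlapping matches.

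Over the upstream windows of 21770 protein-coding genes, 6.33% held GAANNTTC, 6.79% held TTCNNGAA, 0.349% held a run of 3 units and 0.0276% a run of 4. Both motifs read the same on the opposite strand, so that each match counts for both strands. The windows of Hspa8, Hsp90aa1, Hsp90ab1 and Dnajb1 held neither spelling, which says only that these letters are not in these 250 bases.

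Mean levels of the 10 genes ran from 0.92 to 614 FPKM, a scale per transcript length. Hspa8 had the highest mean over the 16 mice and ranked 133 among 12770 genes. Hsp90ab1 followed with 397 FPKM and was below Hspa8 in 15 of 16 mice. Hspd1 (186 FPKM), Hspe1 (129 FPKM) and Hsp90aa1 (80.9 FPKM) came next, and each was above the following gene in all 16 mice. Hspb1 (24.0 FPKM) and Hsph1 (21.4 FPKM) could not be ordered, since Hspb1 was the higher in only 8 of 16 mice. Nor could Hspa1b (9.34 FPKM) and Dnajb1 (9.09 FPKM), with Hspa1b higher in 6 of 16 mice. Hspa1a was lowest. Together the 10 genes took between 0.134% and 0.286% of all FPKM per mouse (969.5 to 2066 FPKM, median 1476), and Hspa8 alone made up a median of 42.2% of their sum.

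**Figure D1:**
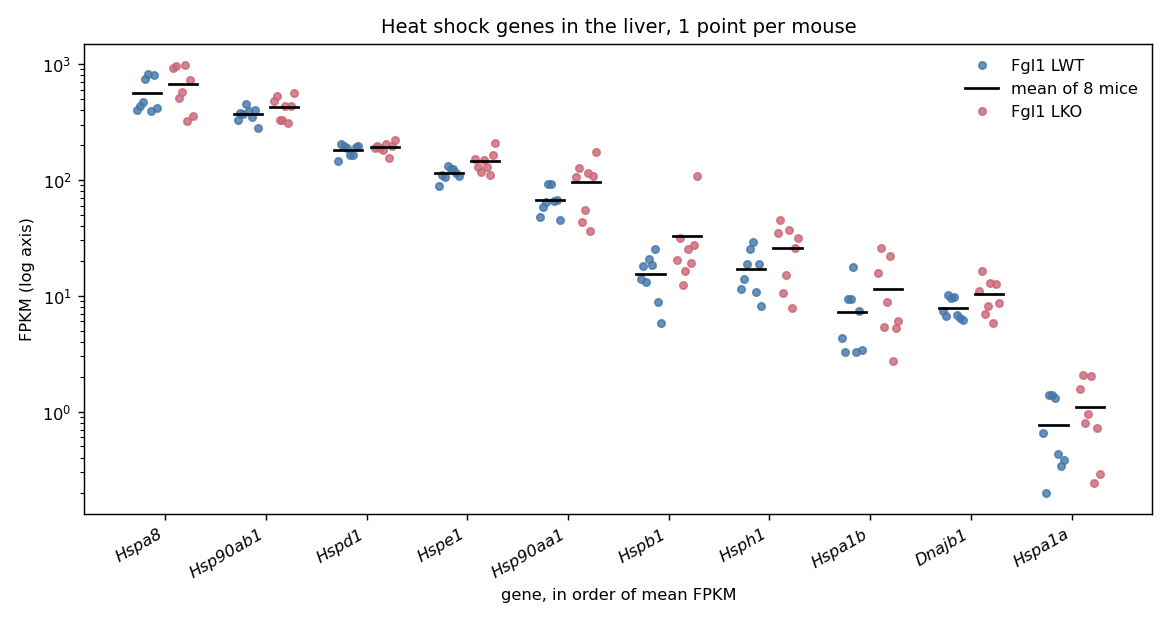
FPKM (log axis) of the 10 heat shock genes in the 8 Fgl1 LWT (blue) and 8 Fgl1 LKO (red) mice, 1 point per mouse, with black lines for group means. Genotypes overlap in every gene, and the Hspb1 value of 108 FPKM in an Fgl1 LKO mouse stands above the others.

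None of the 10 genes passed the test for genotype over all genes, and all 10 had a higher mean in Fgl1 LKO mice. With limma on log2(FPKM + 1) over 12770 genes and Benjamini-Hochberg adjustment, 0 of 10 passed an adjusted p of 0.05 (adjusted p from 0.696 to 0.845), as did 0% of all genes. This test also missed Fgl1, the deleted gene (log2 fold change -3.11 ± 0.49, SE; limma adjusted p = 0.0725), so that a gene that did not pass is not shown to be equal between genotypes. At an unadjusted p under 0.05, 2 of the 10 genes (Hspb1 and Hspe1) stood beside 7.01% of all genes (895). The median log2 fold change (Fgl1 LKO minus Fgl1 LWT on the log2(FPKM + 1) scale) was 0.32 for the 10 genes and 0.01 over all genes, of which 55.8% were higher in Fgl1 LKO. Many of these genes rose and fell together from mouse to mouse, as described below. Hspb1, Hspd1 and Hspe1 did so little with the HSP70 genes (Pearson r from -0.02 to 0.30). The shared direction is therefore not 10 separate observations of these genes. Their spread within genotypes was also wide: the median residual SD was 0.51 on the log2 scale, against 0.17 over all genes.

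HSC70, the product of Hspa8, is the HSP70 that unstressed cells make throughout, and its gene (chr9:40712280-40716496, plus strand, 9 exons) gave from 389.6 to 815 FPKM in Fgl1 LWT mice (median 453) and from 324 to 973 FPKM in Fgl1 LKO mice (median 651). The lowest and the highest mouse were both Fgl1 LKO, and the groups overlapped over the whole Fgl1 LWT range. Means were 560 ± 191 and 668 ± 267 FPKM (SD, n = 8 each), a log2 fold change of 0.21 ± 0.25 (SE) with an adjusted p of 0.845 (limma). When the 4 runs were added as a term of the fit, the estimate turned to -0.05. In that fit the run of Fgl1 LWT mice only does not enter the genotype estimate.

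Hspa1a and Hspa1b (chr17:35188166-35191132 and chr17:35175412-35178214, each a single exon) encode the near-identical HSP70 proteins that cells make on heat or proteotoxic stress. Hspa1b lay between 3.24 and 17.6 FPKM in Fgl1 LWT (median 5.84) and between 2.75 and 25.6 FPKM in Fgl1 LKO mice (median 7.48). Hspa1a lay between 0.20 and 1.40 FPKM in Fgl1 LWT (median 0.54) and between 0.24 and 2.08 FPKM in Fgl1 LKO mice (median 0.88). Both genes were highest in Fgl1 LKO replicate 2. The highest mouse had 5.43 times the Hspa1b of the lowest within Fgl1 LWT and 9.31 times within Fgl1 LKO, and 7.0 and 8.67 times the Hspa1a, so that single mice of a genotype differed by far more than the genotype means. Log2 fold changes were 0.49 ± 0.40 for Hspa1b and 0.22 ± 0.21 for Hspa1a (SE; limma adjusted p = 0.785 and 0.808).

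Hspa1a made up from 4.41% to 13.1% of the sum of both genes (median 9.45%). Their split is uncertain, since 40.5% of the stretches of 150 bases, the read length, in the Hspa1b transcript also occur in Hspa1a, and how the authors assigned shared reads is not stated. Relative to Hspa8, the inducible genes were minor: the ratio of their sum to Hspa8 was 0.011 in the median Fgl1 LWT mouse (0.00793 to 0.0232) and 0.0176 in the median Fgl1 LKO mouse (0.00826 to 0.0287). This ratio, which library scaling cannot move, differed by 0.32 on the log2 scale (exact permutation p = 0.309, two-sided, and 0.321 when adjusted over 3 ratios).

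Hsph1 encodes HSP110, the exchange factor that resets HSP70 (chr5:149537636-149559806, minus strand, 18 exons). It had from 8.18 to 29.25 FPKM in Fgl1 LWT mice (median 16.3) and from 7.79 to 44.8 FPKM in Fgl1 LKO mice (median 28.4). Of the Fgl1 LKO mice, 4 lay above every Fgl1 LWT mouse and the lowest of all was again an Fgl1 LKO mouse, so that the Fgl1 LKO values spanned the Fgl1 LWT range on both sides. The log2 fold change was 0.48 ± 0.34 (SE; limma adjusted p = 0.759).

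Dnajb1, the HSP40 partner of HSP70 (chr8:84334822-84339820, plus strand, 3 exons), lay between 6.16 and 10.2 FPKM in Fgl1 LWT (median 7.12) and between 5.86 and 16.3 FPKM in Fgl1 LKO mice (median 9.77). Means of 7.89 ± 1.66 and 10.3 ± 3.53 FPKM (SD, n = 8 each) gave a log2 fold change of 0.30 ± 0.17 (SE; limma adjusted p = 0.708). Fgl1 LKO replicate 2 was highest and Fgl1 LKO replicate 6 lowest, as for Hsph1.

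Among the HSP90 genes, Hsp90aa1 encodes the more stress-inducible form and Hsp90ab1 the more constant form (chr12:110656842-110662881 and chr17:45878552-45884231, both minus strand, 11 exons each). Hsp90aa1 ranged from 44.8 to 92.2 FPKM in Fgl1 LWT (median 65.1) and from 36.5 to 172 FPKM in Fgl1 LKO mice (median 107). Hsp90ab1 ranged from 280.0 to 453 FPKM in Fgl1 LWT (median 373) and from 308 to 565 FPKM in Fgl1 LKO mice (median 435). The Fgl1 LKO spread was wider for both, with coefficients of variation of 49.2% against 26.7% for Hsp90aa1 and 22.7% against 13.9% for Hsp90ab1, though this difference in spread was not tested. Log2 fold changes were 0.38 ± 0.28 and 0.19 ± 0.13 (SE; limma adjusted p = 0.767 and 0.752). The ratio of Hsp90aa1 to Hsp90ab1 was between 0.144 and 0.235 in Fgl1 LWT and between 0.118 and 0.305 in Fgl1 LKO mice, a difference of 0.20 on the log2 scale (exact permutation test, two-sided, p = 0.321, adjusted 0.321).

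Hspb1, which encodes the small heat shock protein HSP25 (chr5:135916760-135918417, plus strand, 3 exons), had the largest ratio of the highest to the lowest mouse of the 10 genes, 18.7, which rests on Fgl1 LKO replicate 8. Without this mouse the ratio was 5.47, below those of Hspa1a (10.4), Hspa1b (9.31) and Hsph1 (5.75). Hspb1 had from 5.77 to 25.4 FPKM in Fgl1 LWT (median 15.9) and from 12.4 to 108 FPKM in Fgl1 LKO mice (median 22.9), and 7 of 8 Fgl1 LKO mice lay above the Fgl1 LWT median. Fgl1 LKO replicate 8 stood far above the next mouse, which had 31.5 FPKM. The log2 fold change of 0.81 ± 0.35 (SE) had an unadjusted limma p of 0.0339 and an exact permutation p of 0.0452 (two-sided), and an adjusted limma p of 0.696. Without Fgl1 LKO replicate 8 it was 0.52 (exact permutation p = 0.0937).

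The same mouse had the highest sum of 4 cholangiocyte markers, 261 FPKM, where the other 15 mice lay between 23.1 and 81.3 FPKM. Of that sum, Spp1 gave 255 FPKM and Epcam 3.35 FPKM, both the highest of all mice, while Krt19 (1.83 FPKM) and Krt7 (0.43 FPKM) were within the range of the others. Over 16 mice the marker sum and Hspb1 had a Pearson r of 0.72 and a Spearman rho of 0.50, and r fell to 0.31 without this mouse. The part of these cells in the Hspb1 values was not tested, and in whole liver, more cells of a type and more RNA per cell cannot be told apart.

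Hspd1 and Hspe1 encode the barrel and the lid of the chaperonin that folds proteins in the mitochondrial matrix (chr1:55116994-55127183, minus strand, 12 exons, and chr1:55127291-55130466, plus strand, 4 exons). Hspd1 was the steadiest of the 10 genes, between 144.5 and 203 FPKM in Fgl1 LWT (median 192) and between 154 and 220.1 FPKM in Fgl1 LKO mice (median 193). Its residual SD of 0.16 stood at percentile 43.4 of all genes tested, where Hspa1b stood at percentile 99.4, Hspb1 at 99.0 and Hsph1 at 98.8. The log2 fold change of Hspd1 was 0.08 ± 0.08 (SE; limma adjusted p = 0.820).

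Hspe1 ranged from 88.7 to 131 FPKM in Fgl1 LWT (median 112) and from 110.4 to 209.9 FPKM in Fgl1 LKO mice (median 138). It had the lowest unadjusted p of the 10 genes, with a log2 fold change of 0.33 ± 0.11 (SE), an unadjusted limma p of 0.0103, an exact permutation p of 0.0124 (two-sided) and an adjusted limma p of 0.696. In 7 of 8 Fgl1 LKO mice Hspe1 was above the Fgl1 LWT median, while the groups overlapped between 110.4 and 131 FPKM. Without Fgl1 LKO replicate 8, which had the highest Hspe1, the log2 fold change was 0.25 (exact permutation p = 0.02455, unadjusted). The ratio of Hspd1 to Hspe1 was accordingly lower in Fgl1 LKO mice, with medians of 1.67 and 1.32 (1.31 to 1.84 in Fgl1 LWT and 1.05 to 1.60 in Fgl1 LKO), a difference of -0.25 on the log2 scale (exact permutation p = 0.0337, two-sided, and 0.101 when adjusted over 3 ratios). This difference was not shared by all runs of mouse numbers, as described below.

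The genotype differences of Hspb1, Hsp90aa1, Hsp90ab1, Hsph1, Dnajb1 and Hspe1 were largest in a single run of mouse numbers. In run 69 to 72 (2 mice of each genotype), the log2 differences were 2.76 for Hspb1, 1.30 for Hsp90aa1, 1.13 for Hsph1 and 0.74 for Hspe1. In run 48 to 55 (1 Fgl1 LWT and 3 Fgl1 LKO mice) the same genes gave -0.03, -0.14, 0.01 and 0.01, and in run 60 to 64 (2 and 3 mice) -0.12, -0.33, -0.11 and 0.03. Leaving out the run 69 to 72, an alternative chosen after seeing the data, changed the log2 fold changes over the remaining 6 and 6 mice to 0.16 for Hspb1 (exact permutation p = 0.493), 0.19 for Hspe1 (p = 0.115, exact), 0.07 for Hsp90aa1 (p = 0.833, exact) and 0.26 for Hsph1 (p = 0.591, exact). Hspa1b did not share this pattern, with 0.44, 0.09 and 0.14 in the runs 48 to 55, 60 to 64 and 69 to 72, and 0.60 without the last run (exact permutation p = 0.307). The estimates without run 69 to 72 still hold the run of Fgl1 LWT mice only. They can therefore exceed the differences within the remaining runs, as for Hspa1b and Hspe1. The ratio of Hspd1 to Hspe1 set the genotypes apart in run 69 to 72 only. There Fgl1 LKO mice had 1.198 and 1.049, and Fgl1 LWT mice 1.702 and 1.797. In run 48 to 55, Fgl1 LKO mice had 1.249, 1.527 and 1.597, and the Fgl1 LWT mouse 1.445. In run 60 to 64, Fgl1 LKO mice had 1.233, 1.585 and 1.395, and Fgl1 LWT mice 1.329 and 1.313. The run of Fgl1 LWT mice only had 1.63, 1.828 and 1.837. No test was made within single runs.

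**Figure D2:**
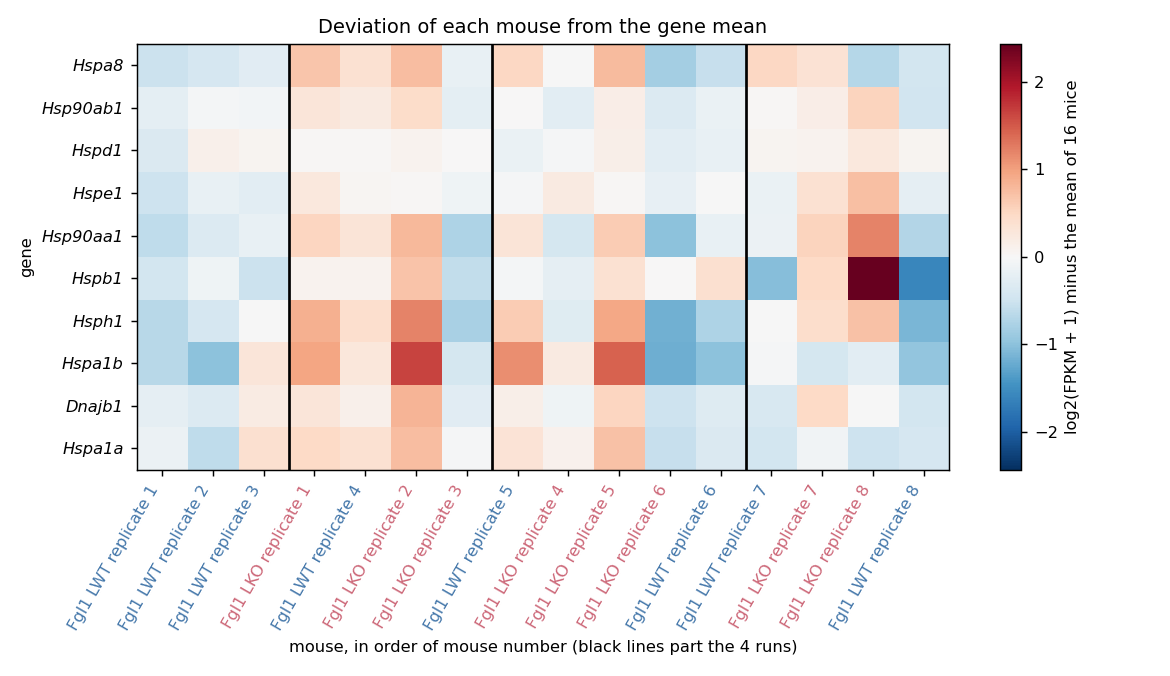
Deviation of each mouse from the gene's mean over 16 mice, in log2(FPKM + 1), with mice in order of mouse number, genotype in the colour of the label (blue Fgl1 LWT, red Fgl1 LKO) and black lines between the runs. Whole columns are red or blue in both genotypes, and Fgl1 LKO replicate 8 is high for Hspb1, Hsp90aa1 and Hspe1 but low for Hspa8.

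Mice differed in the heat shock genes as a group. In Fgl1 LKO replicates 2 and 5, all 10 genes lay above their own median over the 16 mice, and in Fgl1 LWT replicate 4 and Fgl1 LKO replicate 1, 9 of 10 did. In Fgl1 LWT replicate 1, none of the 10 did, and in Fgl1 LWT replicates 2 and 8 and Fgl1 LKO replicates 3 and 6, 1 of 10 did. Fgl1 LKO replicate 2 held the highest value of 4 genes (Hspa1a, Hspa1b, Hsph1 and Dnajb1) and Fgl1 LKO replicate 6 the lowest of 5. Mice with high and with low heat shock genes occurred in both genotypes.

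Fgl1 LKO replicate 8 departed from this common pattern. It held the highest Hsp90aa1 (172 FPKM), Hsp90ab1 (565 FPKM), Hspb1 (108 FPKM), Hspd1 (220.1 FPKM) and Hspe1 (209.9 FPKM) of all mice. Of its HSP70 genes, 2 were low and the third was not. Hspa8 was 353 FPKM, with a lower value only in Fgl1 LKO replicate 6. Hspa1a was 0.29 FPKM, with lower values only in Fgl1 LWT replicate 2 and Fgl1 LKO replicate 6. Hspa1b, at 6.10 FPKM, lay between the medians of Fgl1 LWT (5.84 FPKM) and Fgl1 LKO mice (7.48 FPKM). In the other 15 mice Hspa8 and Hsp90aa1 had a Pearson r of 0.88, which fell to 0.54 with this mouse included.

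Over the 45 pairs of these genes, 44 had a Pearson r above 0, with a median of 0.58 and a range from -0.02 to 0.94. These r are given as a description, since the genes were chosen with earlier results in view. The closest pair was that of the HSP90 genes (r = 0.94, rho = 0.94), followed by Hsph1 with Hsp90aa1 (r = 0.92, rho = 0.92), Hsph1 with Hsp90ab1 (r = 0.90, rho = 0.89) and the neighbours Hspa1a and Hspa1b (r = 0.90, rho = 0.87). Hspa8 was close to Hspa1b (r = 0.85, rho = 0.84) and not to Hspb1 (r = -0.02, rho = 0.13), where Fgl1 LKO replicate 8 set the value: without it, r was 0.36. The neighbours Hspd1 and Hspe1 were less alike, with r = 0.56 and rho = 0.36, and with r = 0.42 without Fgl1 LKO replicate 8. Within genotypes, the HSP90 pair gave 0.86 in Fgl1 LWT and 0.97 in Fgl1 LKO, and Hspd1 with Hspe1 gave 0.32 and 0.70.

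**Figure D3:**
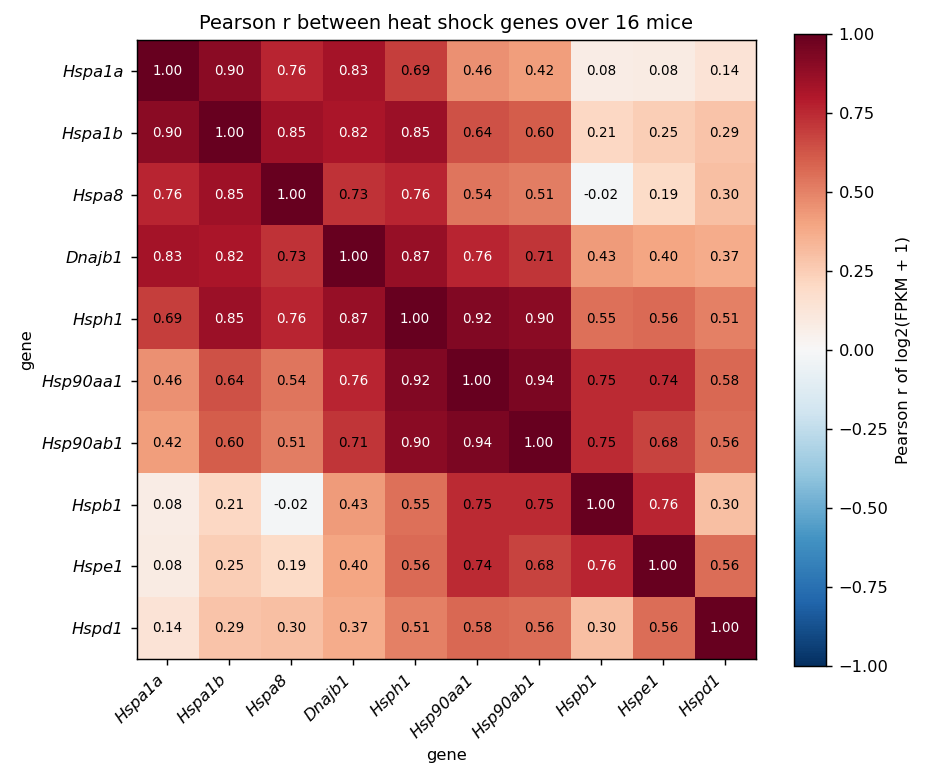
Pearson r of log2(FPKM + 1) over 16 mice for each pair of the 10 genes, which are ordered by family. Outside their own families, the HSP70 genes are closest to Dnajb1 and Hsph1, and the HSP90 genes to Hsph1. Hspb1, Hspe1 and Hspd1 have a higher r with the HSP90 genes than with the HSP70 genes. For Hspd1 and Hspe1 the order against Hspa8 depends in part on Fgl1 LKO replicate 8. Without it, Hspd1 gave 0.51 with Hspa8, 0.47 with Hsp90aa1 and 0.45 with Hsp90ab1. Hspe1 gave 0.60 with Hspa8, 0.63 with Hsp90aa1 and 0.53 with Hsp90ab1. With Hspa1a and Hspa1b, r stayed lower than with the HSP90 genes (0.30 and 0.35 for Hspd1, 0.39 and 0.40 for Hspe1).

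To describe which genes moved with the heat shock genes, every other gene was regressed on Hsph1 with genotype as a term, over 12769 genes in limma with adjusted p under 0.05. Hsph1 was taken as the gene to regress on because it is inducible, well above 0 and shares no stretch of 150 bases with another gene. Of the other 9 heat shock genes, 5 rose with Hsph1, beside 1.05% of all genes (134) that rose and 0.924% (118) that fell. The slopes, in log2 units per log2 unit of Hsph1, were 1.01 ± 0.16 for Hspa1b (SE; adjusted p = 0.00491), 0.76 ± 0.09 for Hsp90aa1 (0.000301), 0.56 ± 0.12 for Hspa8 (0.0283), 0.42 ± 0.07 for Dnajb1 (0.00491) and 0.33 ± 0.05 for Hsp90ab1 (0.00456).

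The other 4 did not pass: Hspa1a with a slope of 0.42 ± 0.11 (limma adjusted p = 0.0691), Hspb1 with 0.51 ± 0.23 (0.238), Hspe1 with 0.16 ± 0.07 (0.252) and Hspd1 with 0.10 ± 0.05 (0.327). The median slope of the 9 genes was 0.42, against -0.01 over all genes. With Fgl1 LKO replicates 2 and 6 left out, whose Hsph1 was farthest from the median, only Hsp90aa1 of the 9 still passed, with a slope of 0.76, while Pearson r with Hsph1 stayed at 0.90 for Hsp90aa1 (from 0.92), 0.79 for Hspa1b (from 0.85) and 0.67 for Hspa8 (from 0.76). With r taken within genotypes, Hsp90aa1 gave 0.91 in Fgl1 LWT and 0.93 in Fgl1 LKO, and after centring on runs 0.94.

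Of the related genes, chaperones of the endoplasmic reticulum (ER) were the group most often called with Hsph1. In the list of 15 ER chaperones, 13 rose, with a median slope of 0.42. Hspa5, the HSP70 of the ER (slope 0.63 ± 0.09; limma adjusted p = 0.00231), had 257 FPKM in the mouse with the lowest Hsph1 (7.79 FPKM) and 825 FPKM in the mouse with the highest (44.8 FPKM). Hyou1, the HSP110 of the ER, rose with a slope of 0.70 ± 0.09 (limma adjusted p = 0.00156). Calr, the most abundant of this list at 572 FPKM, was with Serpinh1 the only member not called (limma adjusted p = 0.0618 and 0.0649). This count depended on few mice: it was 6 without Fgl1 LKO replicate 3, 6 without Fgl1 LKO replicate 6 and 0 without both mice farthest from the Hsph1 median. All 15 were higher on the log2 scale in Fgl1 LKO, beside 55.8% of all genes, with a median log2 fold change of 0.29. For genotype, 0 of 15 passed. Since most of these genes moved with Hsph1, their shared direction is not 15 separate observations.

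Among 22 exchange factors and co-chaperones of HSP70 and HSP90, 8 rose with Hsph1 and none fell. Chordc1, an HSP90-binding protein, had the highest t of all genes (slope 0.54 ± 0.05; limma adjusted p = 0.000116), and Stip1, which links HSP70 to HSP90, the second highest (slope 0.41 ± 0.04; adjusted p = 0.000234). Bag3, an exchange factor induced by stress, Ppid, Ahsa1, Ahsa2 and Ptges3, which act on HSP90, and Cacybp were the others, with limma adjusted p from 0.00472 to 0.0445. The most abundant of this list, Fkbp4 (83.8 FPKM) and St13 (82.7 FPKM), did not pass (limma adjusted p = 0.0943 and 0.205). Without Fgl1 LKO replicate 3 or without Fgl1 LKO replicate 6, 3 of the 22 rose.

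Of 7 other HSP70 and HSP110 genes tested, Hspa13 (slope 0.32 ± 0.05; limma adjusted p = 0.00577) and Hspa4l (slope 0.29 ± 0.06; limma adjusted p = 0.0273) rose, and Hspa4, at 28.7 FPKM the most abundant, gave 0.18 ± 0.05 (limma adjusted p = 0.0573). Of 13 J-domain genes of the cytosol, Dnaja1 rose (slope 0.43 ± 0.07; limma adjusted p = 0.00472) and Dnajc8, which is known from the splicing machinery, fell (adjusted p = 0.0472). Dnajb6 and Dnaja2 did not pass. The lists without any called gene were the 8 subunits of the cytosolic chaperonin TRiC (Cct5 and Cct2 the most abundant), 14 other mitochondrial chaperones and proteases (Hspa9 and Clpx the most abundant), 5 other small heat shock genes (Hspb8 and Hspb6), 5 heat shock factors and regulators (Hsbp1, Hsf1), 14 core clock genes (Nr1d1, Tef), 10 acute phase genes (Hpx, Hp) and 8 other stress genes linked to HSF1. With 1.05% of all genes rising, a list of this size that holds none is no departure from all genes. The median r with Hsph1 in these lists ran from -0.44 (core clock) to 0.56 (TRiC). It was -0.28 for the mitochondrial list, against -0.04 over all genes. Of 12 immediate early genes, Atf3 rose (limma adjusted p = 0.0445), and the most abundant, Zfp36 and Dusp1, did not pass. Hsf1 itself had 7.17 ± 0.99 and 8.11 ± 0.92 FPKM (SD, n = 8 each) in Fgl1 LWT and Fgl1 LKO mice and a slope of 0.14 ± 0.05 (limma adjusted p = 0.138).

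**Figure D4:**
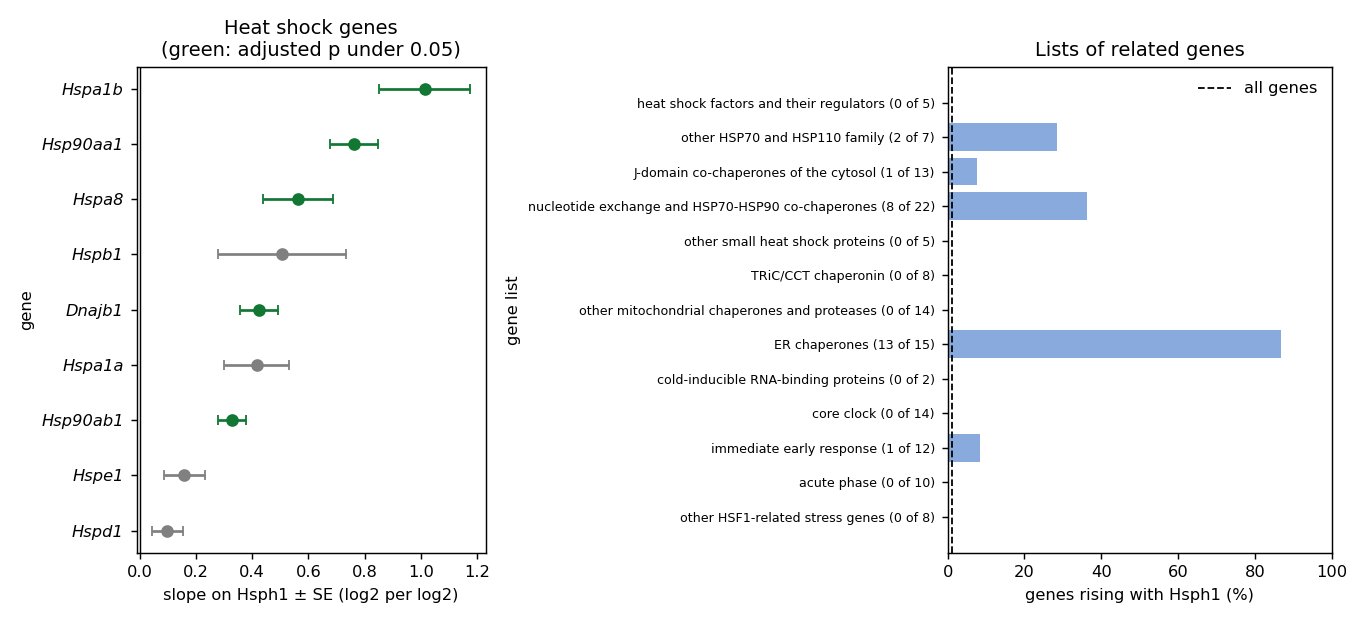
Left, slope of each heat shock gene on Hsph1 with its SE (log2 per log2), in green where the adjusted p was under 0.05; right, percent of tested genes in each list of related genes that rose with Hsph1, with a dashed line at the 1.05% of all genes. ER chaperones (13 of 15) and HSP70 and HSP90 co-chaperones (8 of 22) have the longest bars. The TRiC and mitochondrial lists have none, which at their size is no departure from all genes.

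Outside the 10 heat shock genes, of which Hsp90aa1 ranked 4 by t over all genes, the genes most like Hsph1, by the moderated t among those whose mean FPKM was 1 or more, were Chordc1, Stip1, Ubfd1, Syvn1, Hyou1, Zbtb40, Mlec, Hspa5, Pfkfb3 and Nolc1, with Pearson r from 0.89 (Pfkfb3) to 0.96 (Ubfd1) over 16 mice. Syvn1 encodes a ubiquitin ligase of ER protein degradation and Mlec an ER lectin. The genes most opposed to it were Cirbp, Cpsf4l, Xpa, 1810010H24Rik and Abhd1. Since they were picked for this likeness, these r are descriptions.

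Cirbp, an RNA-binding protein whose mRNA is known to rise when cells cool, had 4.78 FPKM in the mouse with the highest Hsph1 and 23.4 FPKM in the mouse with the lowest. Its slope was -0.73 ± 0.11 (SE; limma adjusted p = 0.00472), and r was -0.87 over all mice, -0.60 in Fgl1 LWT and -0.95 in Fgl1 LKO. Rbm3, the other cold-inducible gene listed, had a slope of -0.25 ± 0.09 (limma adjusted p = 0.153). Neither passed for genotype (limma adjusted p = 0.706 for Cirbp and 0.891 for Rbm3). Their log2 fold changes were -0.54 ± 0.29 and -0.09 ± 0.15 (SE).

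**Figure D5:**
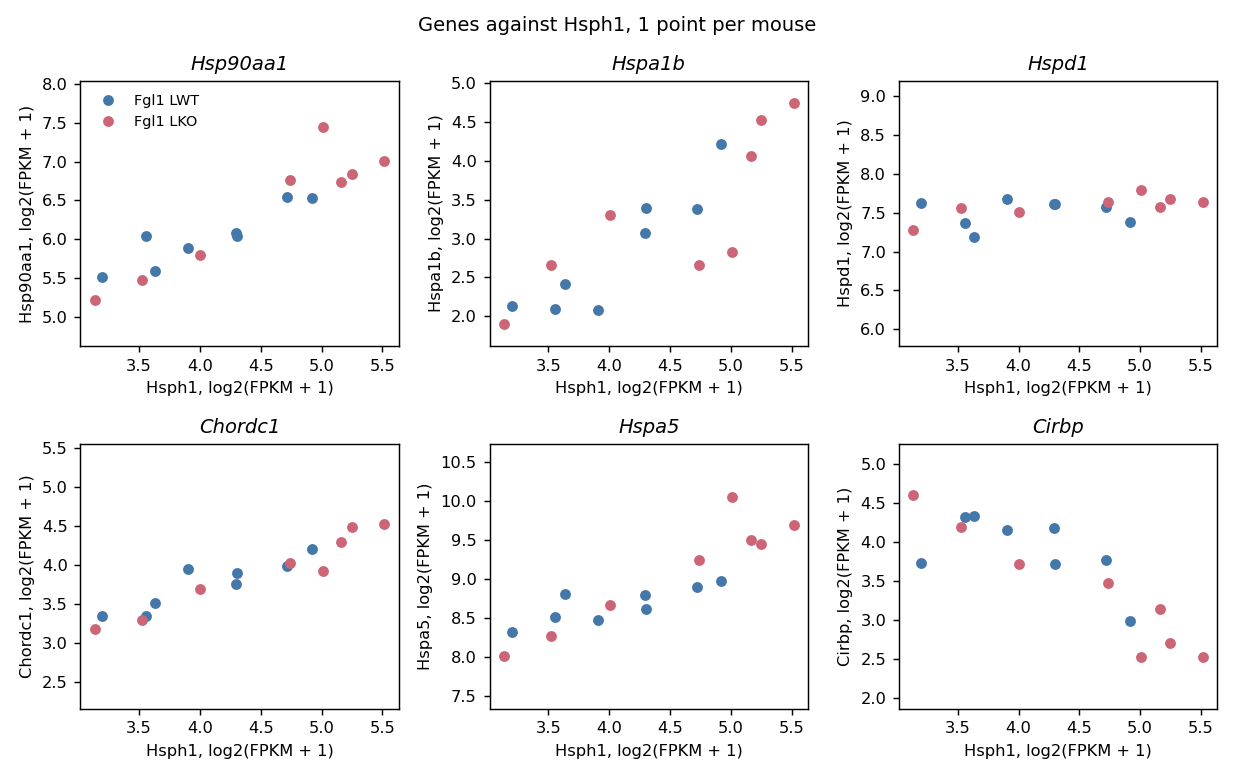
Hsp90aa1, Hspa1b, Hspd1, Chordc1, Hspa5 and Cirbp against Hsph1, all in log2(FPKM + 1), 1 point per mouse (blue Fgl1 LWT, red Fgl1 LKO), with vertical axes of equal span. Hsp90aa1, Hspa1b, Chordc1 and Hspa5 climb with Hsph1 in both genotypes, Hspd1 is nearly level and Cirbp descends.

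Over all mice, the Pearson r of Hsph1 with the median-ratio size factor was -0.10 (permutation p = 0.706, rho = -0.26). It was -0.11 with summed FPKM (permutation p = 0.697, rho = 0.04) and 0.10 with the number of genes above 0 (permutation p = 0.706, rho = 0.06). Within Fgl1 LWT and Fgl1 LKO, r with the size factor was 0.14 and -0.55 (exact permutation p = 0.748 and 0.163). For summed FPKM these r were -0.34 and 0.37, and for genes above 0 they were 0.38 and -0.12. With Fgl1, whose levels did not overlap between genotypes, Hsph1 gave r = -0.08 over all mice (permutation p = 0.764, rho = -0.15). Within Fgl1 LWT and Fgl1 LKO this r was 0.25 and 0.46 (exact permutation p = 0.533 and 0.240). Of 9 sums of cell type markers, that of 3 neutrophil markers moved with Hsph1 (r = 0.68, permutation p = 0.00487, adjusted over the 9 sums 0.0438; rho = 0.58, permutation p = 0.0219; r = 0.72 without the 2 mice farthest from the Hsph1 median, 0.73 within Fgl1 LWT, 0.74 within Fgl1 LKO and 0.71 after centring on runs). This sum lay between 0.66 and 31.9 FPKM in Fgl1 LWT and between 3.00 and 26.0 FPKM in Fgl1 LKO mice and was made of S100a8 and S100a9, while the defining marker Ly6g reached no more than 0.10 FPKM in any mouse. Erythroid markers gave r = -0.55 (rho = -0.48, permutation p = 0.0286, adjusted 0.129; -0.50 after centring on runs). Hepatocyte markers gave r = -0.49 (rho = -0.49, permutation p = 0.0517, adjusted 0.155), -0.61 without the 2 mice farthest from the Hsph1 median and -0.81 after centring on runs, the last larger in size than that of the neutrophil sum and without a test. The other 6 sums gave between -0.35 and 0.35, and between -0.52 and 0.44 after centring. The part of these cells in the heat shock genes was not tested.

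For genotype, 0 genes of the 13 lists of related genes passed (adjusted p from 0.696), and 4 had an unadjusted limma p under 0.05. Hspa4l (5.19 ± 1.01 and 6.84 ± 1.74 FPKM in Fgl1 LWT and Fgl1 LKO; log2 fold change 0.32 ± 0.13, SE), Dnaja2 (27.8 ± 2.03 and 30.6 ± 2.84 FPKM; 0.14 ± 0.06) and Sqstm1, a receptor of selective autophagy (217 ± 20.8 and 274 ± 62.3 FPKM; 0.31 ± 0.11), were higher in mean in Fgl1 LKO mice. Hsf4, a heat shock factor best known from the lens, was lower (3.43 ± 0.51 and 2.77 ± 0.68 FPKM; -0.25 ± 0.11). All 4 had an adjusted limma p of 0.696.

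Several of these genes have copies elsewhere in the genome that could share reads. Of all stretches of 150 bases in the principal transcript, 55.4% for Hspa8, 52.5% for Hspb1 (all in Hsp25-ps1), 39.7% for Hspa1a, 33.5% for Hsp90aa1, 18.6% for Hspd1 and 14.1% for Hspe1 also occur in the transcript of another gene, mostly pseudogenes, and none for Hsph1, Hsp90ab1 and Dnajb1. Levels of the former are less certain than those of the latter.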

How the data were processed

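The authors extracted liver RNA with phenol and chloroform, selected polyA RNA, made stranded libraries, sequenced them as paired reads of 150 bases (DNBSEQ), aligned them to mm39 with HISAT and to reference genes with Bowtie2, and deposited FPKM, rounded to 2 decimals. Versions, the counting step and the annotation are not given in the sources used here. The methods state 7 mice per genotype and a legend 8, and all 16 labelled libraries were used (8 per genotype). No 2 libraries were identical (pairwise r from 0.978 to 0.996), and read depth is unknown, so that no counting error can be given.

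FPKM are not counts. The deposited values were read as they were, log2(FPKM + 1) was taken, and genes averaging 0.1 FPKM or more (12770) were tested with limma 3.58.1 in R 4.3.3 (trend, two-sided, Benjamini-Hochberg, threshold 0.05), for genotype and, over 12769 genes, for the slope on Hsph1 with genotype as a term. Single genes and ratios were compared with exact permutation tests over 12870 arrangements of mice, and correlations with 100000 permutations. Python 3.11.15, numpy 2.4.6, scipy 1.17.1, pandas 2.3.3 and matplotlib 3.10.9 were used. The tests were tested on simulated data. p-values measure the spread between these mice, which the labels give as separate animals.

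The heat shock genes, the lists and the tests were chosen with earlier results of these data known. All 10 genes were named, and of each list the 2 genes of highest mean FPKM, any with an unadjusted genotype p under 0.05, and, chosen after their values were seen, genes called on Hsph1. Spp1, Krt19, Krt7, Epcam, S100a8, S100a9 and Ly6g were also named after their values were seen. The result of 1 gene that the rule names is left out and not reported here. Alternatives were a pseudocount of 0.1, no filter and a filter at 1 FPKM, median-ratio scaling, quantile normalization, array weights, a term for the 4 runs, a replicate block, leaving out runs or single mice, and for the slopes another gene to regress on, no genotype term and leaving out the mice farthest from the median. Positions and upstream sequences are from GRCm39 with the GENCODE annotation, in which all 10 genes were matched by symbol.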

Additional observations from a re-analysis of the deposited data

Results flagged for a closer look

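Among the 8 Fgl1 LKO mice, Hspb1 was 108.0 FPKM in replicate 8, with 31.54 FPKM in the next mouse. On the log2(FPKM + 1) scale this gap took up 0.577 of the range of the group, above Dixon's 95% critical value for 8 values. It was the only such case in 20 groups of 8 mice (10 genes in 2 genotypes), where chance alone gives about 1.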

How the results depend on the processing

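The genotype result for the heat shock genes and their related lists stayed at 0 called genes under every alternative listed in the methods, each mouse left out in turn included. Over all genes, 1 gene, Fgl1, passed with a run term, without the run 36 to 38 and with the replicate block. The 3 ratios kept their direction and stayed above the threshold in all 66 alternative values. Within single runs, the ratio of Hspd1 to Hspe1 was not lower in Fgl1 LKO mice throughout, as described above. Of 389 log2 fold changes of named genes, 1 turned: the log2 fold change of Hspa8 was -0.051 with a run term. The Fgl1 LWT mice of run 36 to 38 (401, 434 and 472 FPKM) then drop out of the estimate, as no Fgl1 LKO mouse shares their run. Within the other runs the log2 differences of Hspa8 were 0.05, 0.01 and -0.20. Whether runs differ as batches was not tested.

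The regression on Hsph1 depended on the processing in how many genes it called, while no slope of a named gene changed sign in any of 1286 alternative values. The counts of genes rising with Hsph1 and genes falling with Hsph1 were 214 and 194 with median-ratio scaling, 204 and 189 with quantile normalization, 320 and 464 with array weights, 449 and 559 with a run term, and 290 and 254 without the genotype term. Falling genes were 72 without the run 36 to 38 and 275 without the run 69 to 72. Leaving out single mice gave from 32 to 171 rising genes (32 without Fgl1 LKO replicate 6, and 66 to 78 without Fgl1 LWT replicate 5, Fgl1 LKO replicate 3 or Fgl1 LKO replicate 5) and from 12 to 248 falling genes (12 without Fgl1 LKO replicate 6, 248 without Fgl1 LWT replicate 8, and 41 to 77 without Fgl1 LWT replicate 5 or Fgl1 LKO replicates 2, 3, 4 or 5), with 4 to 6 of the 9 heat shock genes called. Leaving out both mice farthest from the Hsph1 median left 1 heat shock gene, 12 rising genes and 1 falling gene, with fewer mice and a narrower range of Hsph1. With Dnajb1 in place of Hsph1, these were 1, 3 and 1, and the cause was not tested.

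With the replicate number as a block, 1 heat shock gene (Hsp90aa1), 4 rising genes and 1 falling gene (Cirbp) were called, with fewer residual degrees of freedom. The numbers do not pair the mice: 3 of 8 pairs deviated together with a correlation over 0.1 (-0.16 to 0.45), and in 2 of 8 pairs the Fgl1 LWT mouse correlated best with its own number.

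Since the read depth is unknown, the precision of low values, such as those of Hspa1a, cannot be given.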
